A study of Mus musculus with 7 samples.

Results

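The insulin-like growth factor (IGF) axis was described here by 10 genes, looked up by symbol among the 23366 genes of the deposited count table: the ligands Igf1 and Igf2, the receptors Igf1r and Igf2r, the binding proteins Igfbp2, Igfbp3, Igfbp4 and Igfbp5, the protease Pappa and its inhibitor Stc2. All 10 were found, and all 10 passed the filter on low counts. They were chosen by their measured counts across the 3 groups of these same libraries, so their values across groups are given as a description with no test. RNA came from primary spinal motor neuron cultures of C57BL/6 mouse embryos at E13.5, transduced with pUltra lentivirus. The groups were miR-218 overexpression (OE, 3 libraries), miR-218 knockdown (KD, 2 libraries) and the empty virus (control, 2 libraries). All 3 groups shared the strain, the papain dissociation, the density gradient, the medium with horse serum, B27, CNTF and GDNF, and the later fluorodeoxyuridine, which is given to hold back dividing glia. B27 is a supplement that contains insulin. The series text mentions duplicates only, but 3 titles carry OE, and none of the 3 was dropped. The labels name neither the share of cells transduced nor whether libraries came from separate cultures, so the errors and p-values given here cover only how far these libraries scatter, which could be technical.

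IGF1 and IGF2 are secreted growth factors that signal through the IGF1 receptor, a tyrosine kinase that activates PI3 kinase and Akt, and IGF1 is known as a survival factor for motor neurons. The IGF2 receptor carries IGF2 to lysosomes and does not signal as a kinase. A family of binding proteins of high affinity holds IGFs outside the cell. The metalloprotease PAPP-A, encoded by Pappa, cleaves IGFBP4 and IGFBP5 and so frees bound IGF, and stanniocalcin 2, encoded by Stc2, binds PAPP-A and blocks it.

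MicroRNAs pair with messenger RNA mainly through the seed, bases 2 to 8 of the mature strand. The mature strand of miR-218 is shown first (RefSeq, build GRCm38.p6), with the seed in capitals. Below it stand the places in the annotated 3′ UTRs of the members that hold at least 6 bases complementary to the seed. They are read 5′ to 3′ on the transcribed strand, with the match in capitals and with coordinates on mm9, the build of the files.
miR-218-5p: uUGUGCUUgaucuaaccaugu
Igf2, 7mer-m8, chr7:149838926-149838953, minus strand: ccctacctaccctaaaAAGCACAtgatt
Igf2, 6mer, chr7:149838405-149838432, minus strand: gacaacccctaccctgAGCACAcctatg
Igfbp3, 7mer-A1, chr11:7106227-7106254, minus strand: cagagctttccttgagAGCACAAaggaa
Igfbp5, 7mer-A1, chr1:72907193-72907220, minus strand: gatgccttggaaagacAGCACAActtca
Pappa, 6mer, chr4:65015897-65015924, plus strand: tgctgctcttggccttAGCACActggac
Stc2, 7mer-A1, chr11:31258645-31258672, minus strand: ccagatctgccatcatAGCACAAaagca

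The motifs searched, on the transcribed strand only, were the 6mer AGCACA, the 7mer-m8 AAGCACA and the 8mer AAGCACAA. Each longer motif contains the shorter, and a 7mer-A1 is a 6mer followed by A. Of the 10 members, 5 held a 6mer, 1 a 7mer-m8 and 0 an 8mer. Among the 11137 tested genes with an annotated 3′ UTR, 38.6% held a 6mer, 15.6% a 7mer-m8 and 4.53% an 8mer. Igf1, Igf1r, Igf2r, Igfbp2 and Igfbp4 held none of the motifs in the longest annotated 3′ UTR. That UTR is 197 bases for Igf1r, 312 bases for Igfbp2 and 6347 bases for Igf1, against a median of 1227 bases over tested genes. Bases beyond the annotated UTR were not searched, so for Igf1r the absence of a motif covers those 197 bases only. A match is a description of the letters and not a measured site.

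Gene counts summed to 2879382 to 3360686 in OE, 3081800 and 3329184 in KD, and 2099714 and 1591812 in control libraries, so the control values have the widest counting error. The precursor gene Mir218-1 had 234 to 342 CPM in OE, on a scale of counts relative to library size,, 42.8 and 52.5 CPM in KD, and 52.3 and 51.9 CPM in control libraries, and mature miR-218 was not measured. Neuron markers were abundant, with 1481 to 1643 CPM of Map2 in OE, 1346 and 1386 CPM in KD, and 1651 and 1617 CPM in control libraries. The defining motor neuron marker Mnx1 was at 0 in all 7 libraries. The 2 most abundant markers of the motor neuron list were Ret and Prph. Ret had 53 to 92 counts in OE, 69 and 78 in KD, and 15 and 22 in control libraries. Prph had 20 to 30 counts in OE, 22 and 1 in KD, and 14 and 15 in control libraries. Chat, the acetylcholine-synthesising enzyme, had 2 to 11 counts in OE, 17 and 26 in KD, and 5 and 2 in control libraries, and Isl1 had 2 to 11, 19 and 4, and 11 and 7 counts in the same groups. The libraries also held RNA of other cells, described below, and in such bulk samples fewer cells of a type and less RNA per cell cannot be told apart. CPM are not per transcript length, so levels are compared between libraries and not between genes.

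**Figure D1:**
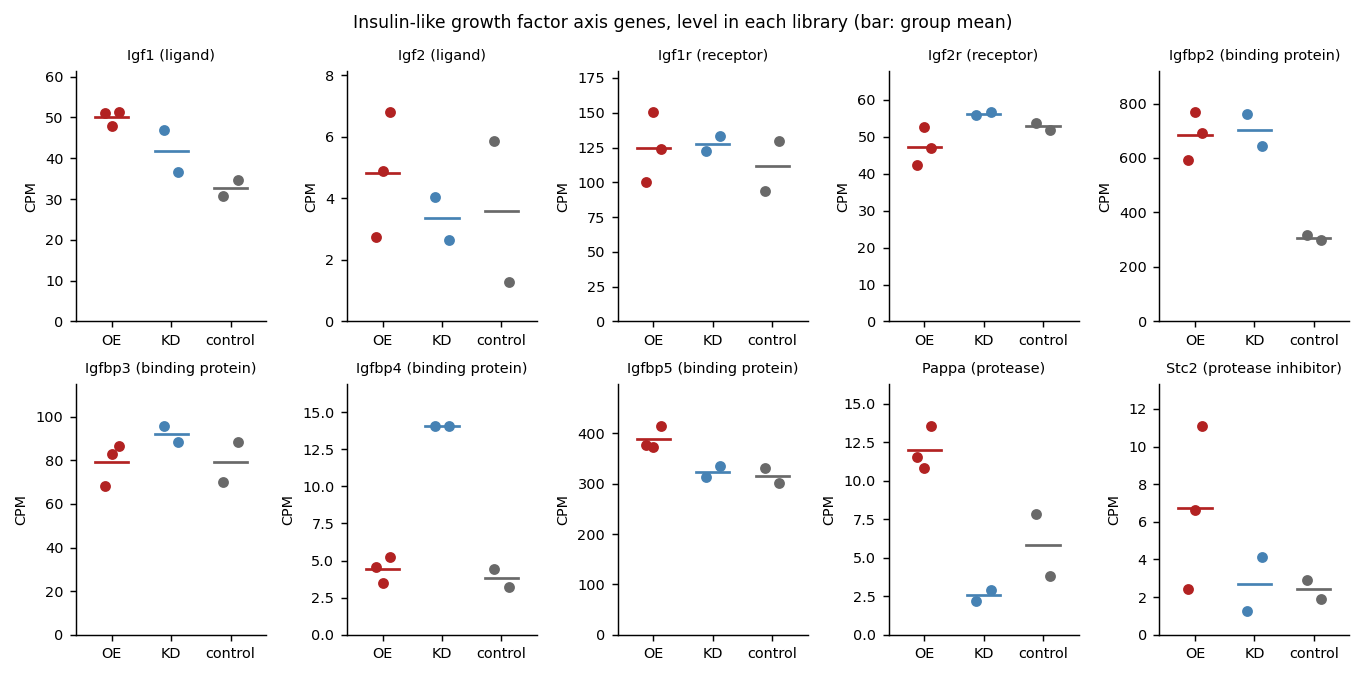
Level of each of the 10 genes in CPM (vertical axis, from 0, scaled per gene) in the 3 OE, 2 KD and 2 control libraries (points), with the group mean as a bar. Igfbp2 lies at 594 to 767 CPM in OE and at 762 and 644 CPM in KD, above 316 and 297 CPM in control libraries, while Igfbp4 stands apart in KD alone and Pappa lies in the order OE, control, KD.

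Igf1 had 168, 137 and 166 counts in OE, 150 and 125 in KD, and 63 and 54 in control libraries. Scaled to CPM these were 51.1, 47.9 and 51.2 in OE, 46.8 and 36.7 in KD, and 30.8 and 34.6 in control libraries. The 3 groups did not overlap, with OE highest and control lowest. The means were 50.1 ± 1.90 CPM in OE (SD, n = 3), 41.7 ± 7.18 CPM in KD (SD, n = 2) and 32.7 ± 2.69 CPM in control (SD, n = 2). The log2 fold change was 0.62 with a standard error (SE) of 0.22 in OE against control, 0.36 with an SE of 0.23 in KD against control, and 0.26 with an SE of 0.20 in OE against KD. The gap of KD to control was 0.17 without KD 1, and that of OE to KD was 0.46 without KD 1 and 0.11 without KD 2. Igf1 lies on chromosome 10 (mm9, 87321010 to 87399792, plus strand) and overlaps Gm16176 on the other strand.

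Igf2, the fetal growth factor that is expressed from the paternal allele in most tissues, was near the limit of detection. It had 9, 14 and 22 counts in OE, 13 and 9 in KD, and 12 and 2 in control libraries, or 2.74 to 6.79, 4.06 and 2.64, and 5.87 and 1.28 CPM. All groups overlapped, and the 2 control libraries spanned most of the range. The log2 fold change was 0.35 (SE 0.68) in OE against control and -0.17 (SE 0.75) in KD against control. Without control 1 these values were 1.88 and 1.35, and without control 2 they were -0.28 and -0.80. Without KD 2 the value of KD against control was 0.11. Igf2 (chromosome 7, 149836673 to 149852721, minus strand) overlaps Igf2as on the other strand, for which the table lists 1 count in all, and Mir483 on the same strand, and reads of overlapping genes may not have been separated. No difference in Igf2, which carries the only 7mer-m8 match among the members, was detectable at this depth.

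Of the receptors, Igf1r had 329, 430 and 401 counts in OE, 392 and 454 in KD, and 192 and 203 in control libraries. Its mean was 125 ± 25.1 CPM in OE (SD, n = 3), 128 ± 7.64 CPM in KD (SD, n = 2) and 112 ± 25.6 CPM in control (SD, n = 2), and the groups overlapped in all 3 comparisons. The log2 fold change was 0.16 (SE 0.16) in OE against control and 0.20 (SE 0.17) in KD against control. Without control 1 these were -0.06 and -0.03, and without control 2 they were 0.42 and 0.45. Igf2r had 139, 151 and 152 counts in OE, 179 and 193 in KD, and 110 and 81 in control libraries, with means of 47.3 ± 5.25, 56.2 ± 0.521 and 52.8 ± 1.32 CPM. OE overlapped control and lay below KD, and the log2 fold change of OE against KD was -0.25 (SE 0.18). Igf2r overlaps the antisense RNA Airn on chromosome 17 (12875272 to 12962530, minus strand), and since the strand setting of the counting is not given in the sources used here, reads of the pair may not have been separated. The table lists 6 to 23 counts for Airn in 6 libraries and 1 count in control 1.

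Igfbp2, a binding protein abundant in developing brain and cerebrospinal fluid, was higher under both miR-218 viruses than under the control virus. It had 1952, 2196 and 2238 counts in OE, 2440 and 2194 in KD, and 646 and 464 in control libraries. In CPM these were 594, 767 and 691 in OE, 762 and 644 in KD, and 316 and 297 in control libraries. Every library of either miR-218 virus lay above both control libraries, and OE and KD overlapped each other. The mean was 684 ± 87.0 CPM in OE (SD, n = 3), 703 ± 83.5 CPM in KD (SD, n = 2) and 307 ± 13.1 CPM in control (SD, n = 2). The level was 2.23-fold that of control in OE (log2 1.16, SE 0.10) and 2.29-fold in KD (log2 1.19, SE 0.11), while OE against KD gave a log2 fold change of -0.04 (SE 0.09). Both values against control rest on the same 2 control libraries.

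Some marker lists also lay above control under both viruses, among them the mural and motor neuron lists, given further below. The endothelial, microglia, oligodendrocyte lineage and Schwann cell lists, also given below, did not. The 12 astrocyte and radial glia markers summed to 4397 to 4610 CPM in OE, 3894 and 4612 CPM in KD, and 2827 and 3172 CPM in control libraries. All 12 were tested, 5 rose and 1 fell in OE against control, and 5 rose and 1 fell in KD against control. Calls were by edgeR's quasi-likelihood test, with adjusted p under 0.05 and fold over 1.5. Of all tested genes, 4.91% were called in OE against control and 11.7% in KD against control. The 2 most abundant, Fabp7 and Vim, had 1910 to 2011 and 1601 to 1859 CPM in OE, 1505 to 1816 and 1442 to 1777 CPM in KD, and 1053 to 1250.3 and 853 to 1012 CPM in control libraries. The 12 fibroblast and meningeal markers summed to 235 to 312 CPM in OE, 274 and 307 CPM in KD, and 165 and 192 CPM in control libraries, and of 9 tested 2 rose in OE and 1 in KD. The 6 dividing cell genes, of which all 6 rose in OE and all 6 in KD, summed to 367 to 485 CPM, 640 and 690 CPM, and 206 and 225 CPM in the same groups. The 7 neuron markers summed to 4383 to 4719 CPM in OE, 4438 and 4474 CPM in KD, and 4958 and 5015 CPM in control libraries. The part of these cells in the Igfbp2 level was not tested.

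Igfbp4, which holds IGF away from its receptor and is the main substrate of PAPP-A, was high in KD. It had 15, 10 and 17 counts in OE, 45 and 48 in KD, and 9 and 5 in control libraries. The corresponding levels were 4.56, 3.49 and 5.25 CPM in OE, 14.0 and 14.1 CPM in KD, and 4.40 and 3.20 CPM in control libraries. Both KD libraries lay above all 5 others, and OE overlapped control. The KD level was 3.62-fold that of control (log2 1.85, SE 0.52), with a 95% counting interval for the ratio of scaled counts of 2.05 to 6.88. OE against KD gave a log2 fold change of -1.65 (SE 0.41), a level 3.14-fold lower in OE, and OE against control gave 0.21 (SE 0.53). The counting intervals cover counting error only. Igfbp4 lies on chromosome 11 (98902558 to 98913969, plus strand).

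Contractile genes on the mural marker list were also highest in KD. The 9 mural markers summed to 313 to 453 CPM in OE, 753 and 807 CPM in KD, and 174 and 175 CPM in control libraries. Of 4 tested, 3 (Acta2, Tagln and Cnn1) rose in KD against control, rose in OE against control and were lower in OE than in KD. Of all tested genes, 11.7%, 4.91% and 5.3% were called in these comparisons. Des was at 0 in all 7 libraries, and Myh11, Rgs5 and Kcnj8 had under 10 counts. The endothelial list summed to 6.99 to 14.3 CPM in OE, 5.93 and 9.97 CPM in KD, and 1.47 and 10.3 CPM in control libraries, with Cldn5 at 0. Which cells expressed the contractile genes, and the part of any such cells in the Igfbp4 level, were not tested.

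Igfbp3, the main IGF carrier of blood, and Igfbp5, another substrate of PAPP-A, differed less between groups. Igfbp3 had 68.4, 82.8 and 86.4 CPM in OE, 95.8 and 88.6 CPM in KD, and 69.9 and 88.4 CPM in control libraries, so KD lay above both other groups, with KD 2 only just above control 2. Its log2 fold change was 0.01 (SE 0.17) in OE against control, 0.23 (SE 0.18) in KD against control and -0.22 (SE 0.15) in OE against KD. Igfbp5 had 1238, 1070 and 1346 counts in OE, 1005 and 1140 in KD, and 676 and 471 in control libraries. In CPM it had 376, 374 and 415 in OE, 314 and 334 in KD, and 330.4 and 302 in control libraries, so that OE lay above both other groups and KD overlapped control. The log2 fold change of Igfbp5 was 0.30 (SE 0.09) in OE against control, 0.03 (SE 0.10) in KD against control and 0.26 (SE 0.09) in OE against KD. Igfbp5 and Igfbp2 are tail-to-tail neighbours on chromosome 1 with 5457 bases between them (Igfbp2 at 72871077 to 72899048, plus strand; Igfbp5 at 72904506 to 72921458, minus strand). Igfbp2 alone of the pair lay more than 1.5-fold above control under either virus.

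Summed over Igfbp2, Igfbp3, Igfbp4 and Igfbp5, the binding protein level was 1043, 1227 and 1198 CPM in OE, 1185 and 1081 CPM in KD, and 720.4 and 691 CPM in control libraries. Igfbp2 made up 56.9%, 62.5% and 57.7% of those counts in OE, 64.3% and 59.6% in KD, and 43.8% and 43.0% in control libraries. The groups given a miR-218 virus lay above control in both measures and overlapped each other.

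Pappa, the protease, lay on opposite sides of control under the 2 viruses. It had 38, 31 and 44 counts in OE, 7 and 10 in KD, and 16 and 6 in control libraries. In CPM these were 11.6, 10.8 and 13.6 in OE, 2.18 and 2.93 in KD, and 7.82 and 3.84 in control libraries. The 3 groups did not overlap, although the control libraries lay far apart and control 2 was close to KD. The mean was 11.99 ± 1.42 CPM in OE (SD, n = 3), 2.56 ± 0.529 CPM in KD (SD, n = 2) and 5.83 ± 2.81 CPM in control (SD, n = 2). The OE level was 4.61-fold that of KD (log2 2.21, SE 0.48), with a counting interval of 2.80 to 8.32 for the ratio of scaled counts. OE against control gave a log2 fold change of 1.00 (SE 0.46), and KD against control gave -1.21 (SE 0.58). Those values moved with the control library: without control 1 they were 1.64 and -0.58, and without control 2 they were 0.62 and -1.59. The OE against KD value stayed between 2.02 and 2.44 when any 1 library was left out. Pappa lies on chromosome 4 (64785208 to 65018543, plus strand), and its 6mer is the AGCACA shown above.

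Stc2, the inhibitor of PAPP-A, had 8, 19 and 36 counts in OE, 4 and 14 in KD, and 6 and 3 in control libraries. Its CPM were 2.43, 6.64 and 11.1 in OE, 1.25 and 4.11 in KD, and 2.93 and 1.92 in control libraries, and the groups overlapped in every comparison. The log2 fold change was 1.43 (SE 0.73) in OE against control, 0.12 (SE 0.85) in KD against control and 1.30 (SE 0.65) in OE against KD. Without OE 3, the highest library, the values for OE were 0.85 against control and 0.72 against KD. Without KD 1 and without KD 2 the value of OE against KD was 0.71 and 2.39, and that of KD against control was 0.72 and -0.96.

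Protease and substrate were also set against each other within each library, a ratio that does not depend on scaling between libraries. There were 0.395, 0.323 and 0.386 Igfbp4 counts per Pappa count in OE, 6.43 and 4.8 in KD, and 0.563 and 0.833 in control libraries. KD stood above both other groups and OE below both. The ratio describes how the pair varied and is not a measure of cleavage, and since Igfbp4 and Pappa were chosen with these counts known, the separation carries no test.

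**Figure D2:**
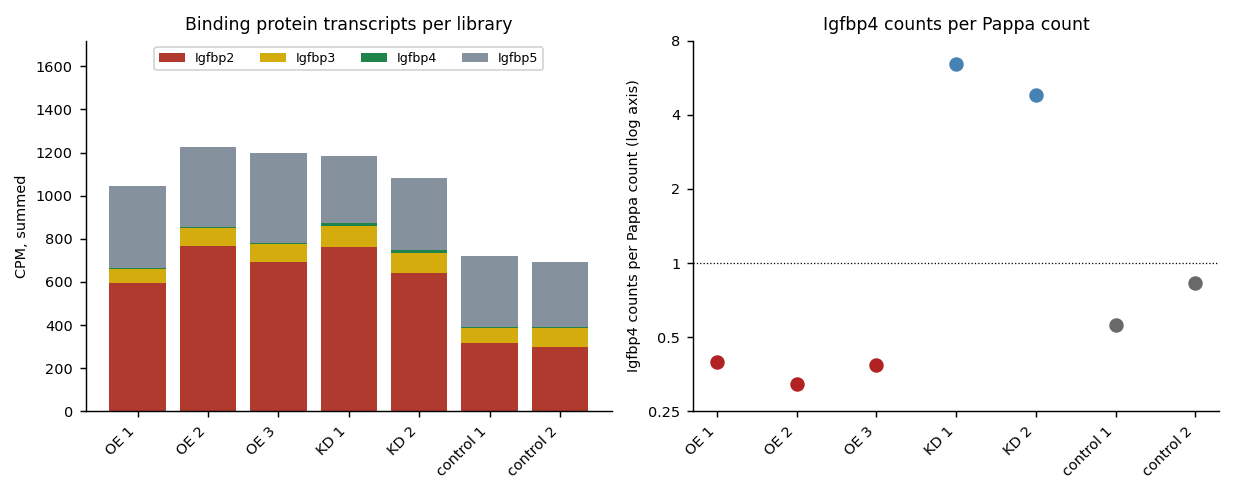
Left, CPM of Igfbp2, Igfbp3, Igfbp4 and Igfbp5 stacked for each library, from 0; right, Igfbp4 counts per Pappa count in each library on a log axis. The stacks reach 1043 to 1227 CPM in OE and 1185 and 1081 CPM in KD, above 720.4 and 691 CPM in control libraries, and the ratio is 6.43 and 4.8 in KD and under 1 in the other 5 libraries.

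Read side by side over the 10 genes, the comparisons differed in which members stood apart. In OE against control, 4 members did not overlap control, all above it (Igf1, Igfbp2, Igfbp5 and Pappa), where 35.3% of all tested genes did not overlap and 18.1% lay wholly above control. In KD against control, 5 were above (Igf1, Igf2r, Igfbp2, Igfbp3 and Igfbp4) and 1 below (Pappa), where 53.3% of all tested genes did not overlap and 27.2% lay wholly above control. In OE against KD, 3 were above (Igf1, Igfbp5 and Pappa) and 3 below (Igf2r, Igfbp3 and Igfbp4), where 37.9% of all tested genes did not overlap, 18.5% above and 19.4% below. The rule of an adjusted p under 0.05 with a fold over 1.5, which the labels' protocols also give, was met by 1 member in OE against control (Igfbp2), where it was met by 4.91% of the 12134 tested genes, 3.65% higher and 1.26% lower. It was met by 2 members in KD against control (Igfbp2 and Igfbp4), where it was met by 11.7% of tested genes, 7% higher and 4.71% lower. It was met by 2 in OE against KD (Igfbp4, lower, and Pappa, higher), where it was met by 5.3% of tested genes, 2.93% higher and 2.37% lower. An alternative fit by DESeq2 gave no adjusted p for either gene in OE against KD, so it neither kept nor lost them. Because the members were chosen with these contrasts known, nothing is read from these counts. Igfbp4 no longer met the rule in KD against control without KD 1, KD 2 or control 2, with log2 fold changes of 1.86, 1.85 and 1.67, and 0 members met it in OE against KD without KD 1, with log2 fold changes of -1.64 for Igfbp4 and 2.02 for Pappa. Without KD 2, 1 member (Pappa) met it in OE against KD. The median log2 fold change of the 10 genes was 0.32, 0.16 and 0.11 in the 3 comparisons. Over all tested genes it was 0.0015, 0.0019 and -0.011. Since the members were chosen with these values known, nothing is read from that gap either.

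**Figure D3:**
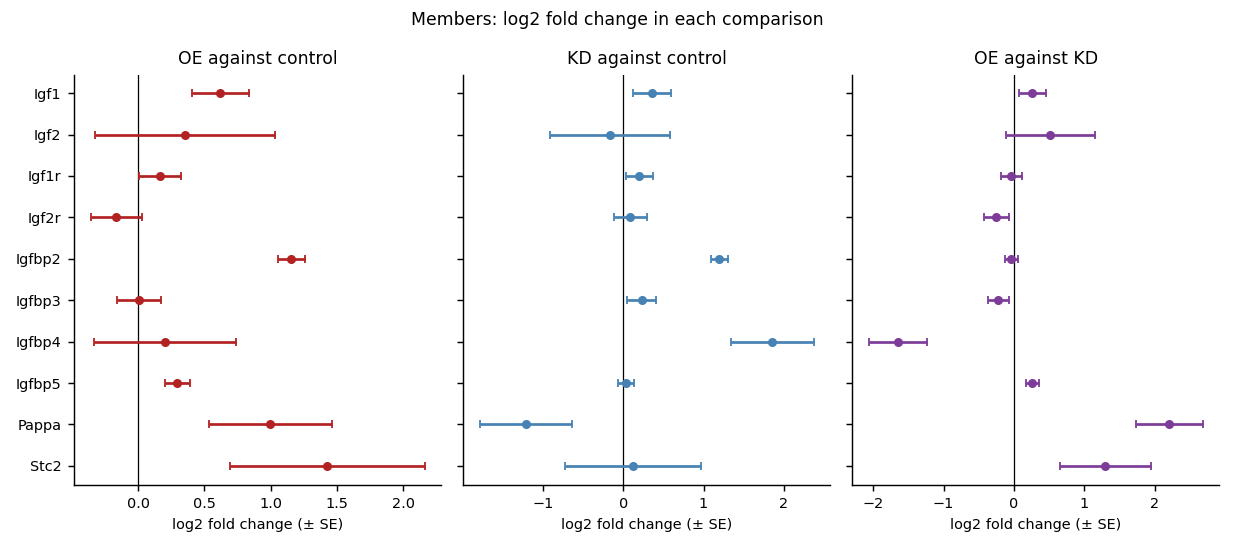
Log2 fold change of each gene (horizontal axis; point, with SE as bars) in OE against control, KD against control and OE against KD, from 1 edgeR fit of the 7 libraries. Igfbp2 is at 1.16 and 1.19 in the panels against control and at -0.04 between the viruses, while Pappa is at 1.00, -1.21 and 2.21 and Igfbp4 at 0.21, 1.85 and -1.65.

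Genes whose level over the 7 libraries was most like that of Pappa or of Igfbp2 were listed by Pearson correlation of log2 CPM among 9189 tested genes with a mean of at least 10 CPM. The 7 points share their libraries and fall into 3 groups, so these values are a description. For Pappa the 5 highest were Scd2 (r = 0.979), a fatty acid desaturase, Laptm4b (0.974), a lysosomal membrane protein, Glrx (0.971), a glutaredoxin, Ntm (0.971), a neural cell adhesion molecule, and Errfi1 (0.969), an inhibitor of the EGF receptor. Glrx averaged 67.3 CPM in OE, 29.1 in KD and 44.0 in control, and Scd2 averaged 1668 CPM in OE, 1095 in KD and 1418 in control. For Igfbp2 they were Serpinh1 (r = 0.998), a collagen chaperone, 4933426M11Rik (0.994), Akr1b10 (0.993), an aldo-keto reductase, Zfyve21 (0.993) and Acox3 (0.989), a peroxisomal oxidase. Serpinh1 averaged 475 CPM in OE, 492 in KD and 252 in control.

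The wider pathway was followed in 90 other gene names, of which 88 were in the table and 69 were tested. In OE against control 6 rose and 1 fell, or 10.1% of those tested, against 4.91% of all tested genes. In KD against control 9 rose and 5 fell, or 20.3%, against 11.7% of all. In OE against KD 3 were higher in OE and 2 lower, or 7.25%, against 5.3% of all. The median log2 fold change over the 69 genes was -0.0068, 0.011 and 0.022 in these comparisons, close to that of all tested genes. The lists were drawn up with earlier results of these data known, so nothing is read from these shares. The adjusted p-values that follow are from edgeR's quasi-likelihood test with Benjamini-Hochberg adjustment over all 12134 tested genes. The same limit holds for each of them.

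Among other binding proteins, 2 of 6 were tested and each was called somewhere. Igfbpl1, an IGFBP-like protein of developing neurons, had 391, 385 and 423 counts in OE, 846 and 1090 in KD, and 172 and 143 in control libraries. It rose in KD against control (log2 1.74, SE 0.14, adjusted p = 7.89e-11) and was lower in OE than in KD (log2 -1.19, SE 0.11, adjusted p = 3.46e-09). OE against control gave 0.55 (SE 0.13, adjusted p = 0.00931), under the 1.5-fold limit. No groups overlapped, and the order was KD, OE, control. Igfbp7, which binds IGFs with low affinity, had 44.4, 52.4 and 46.6 CPM in OE, 30.9 and 29.9 CPM in KD, and 31.3 and 22.4 CPM in control libraries, and it rose in OE against control (log2 0.81, SE 0.23, adjusted p = 0.026). Of the 9 insulin and relaxin family ligands and receptors, 3 were tested. Rln1, a relaxin, rose in OE (log2 1.46, SE 0.39, adjusted p = 0.0168) and in KD (log2 1.22, SE 0.42, adjusted p = 0.045) against control. The insulin receptor gene Insr was not called, at -0.31, 0.11 and -0.42 in OE against control, KD against control and OE against KD.

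Of 13 genes of other proteases and the stanniocalcin Stc1, 11 were tested, of which 2 rose in OE and 2 rose in KD against control. Each was 18.2% of those tested, where 4.91% (OE) and 11.7% (KD) of all tested genes were called. In OE against KD, Stc1, the other stanniocalcin, was at log2 0.56 (adjusted p = 0.0595). Plat, tissue plasminogen activator, had 186, 186 and 199 CPM in OE, 220.4 and 220.3 CPM in KD, and 104 and 116 CPM in control libraries, and rose in OE (log2 0.80, SE 0.12, adjusted p = 3.8e-05) and in KD (log2 1.01, SE 0.13, adjusted p = 6.78e-07). Plau, urokinase, rose in OE (log2 1.37, SE 0.39, adjusted p = 0.0259), and Mmp14, a membrane metalloprotease, rose in KD (log2 1.62, SE 0.39, adjusted p = 0.00335). Pappa2, the relative of Pappa, had too few counts to be tested. The 3 genes for IGF2 mRNA-binding proteins were tested and not called, with adjusted p-values from 0.772 to 0.981 over the 3 comparisons.

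In the growth hormone axis, 5 of 6 genes were tested and 1 was called. Socs2, which damps growth hormone receptor signalling, had 328, 210 and 223 counts in OE, 103 and 101 in KD, and 125 and 84 in control libraries. In CPM these were 99.7, 73.4 and 68.8 in OE, 32.2 and 29.6 in KD, and 61.1 and 53.8 in control libraries, so the groups did not overlap and stood in the order OE, control, KD. Socs2 fell in KD against control (log2 -0.90, SE 0.22, adjusted p = 0.00429) and was higher in OE than in KD (log2 1.39, SE 0.19, adjusted p = 4.5e-06). OE against control gave 0.49 (adjusted p = 0.134).

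Of 34 genes of signalling inside the cell, 31 were tested, 2 rose in OE, 4 rose in KD and 1 was lower in OE than in KD. These were 6.45%, 12.9% and 3.23% of those tested, near the 4.91%, 11.7% and 5.3% of all tested genes. Pik3r3, a regulatory subunit of PI3 kinase, had 141, 153 and 148 CPM in OE, 410 and 363 CPM in KD, and 176 and 191 CPM in control libraries. It rose in KD against control (log2 1.07, SE 0.12, adjusted p = 2.91e-08) and was lower in OE than in KD (log2 -1.39, SE 0.10, adjusted p = 6.7e-12), while OE against control gave -0.32 (adjusted p = 0.0793). Eif4ebp1, the repressor of translation that mTOR inactivates, rose in OE (log2 1.23, SE 0.38, adjusted p = 0.0429) and in KD (log2 1.32, SE 0.40, adjusted p = 0.0215). Foxo1, a transcription factor that Akt keeps out of the nucleus, rose in OE (log2 1.03, SE 0.29, adjusted p = 0.0263) and in KD (log2 1.00, SE 0.31, adjusted p = 0.0252). The adaptor Shc1 rose in KD (log2 1.20, SE 0.35, adjusted p = 0.0156).

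Igf2 is one of a group of imprinted growth genes, and of 20 such names 18 were in the table and 15 were tested. In KD against control 1 rose and 4 fell, in OE against control 1 fell, and in OE against KD 2 were higher in OE. These were 33.3%, 6.67% and 13.3% of those tested, against 11.7%, 4.91% and 5.3% of all tested genes. Plagl1, a zinc finger factor, had 82.7, 77.6 and 74.1 CPM in OE, 23.1 and 25.8 CPM in KD, and 61.6 and 57.0 CPM in control libraries. It fell in KD against control (log2 -1.28, SE 0.21, adjusted p = 4.32e-05) and was higher in OE than in KD (log2 1.67, SE 0.19, adjusted p = 8.7e-08). Dlk1, a Notch ligand relative, fell in KD (log2 -0.91, SE 0.25, adjusted p = 0.0111) and was higher in OE than in KD (log2 1.12, SE 0.22, adjusted p = 0.000679). Cdkn1c, an inhibitor of cyclin-dependent kinases, fell in OE (log2 -0.79, SE 0.18, adjusted p = 0.0046) and in KD (log2 -0.70, SE 0.19, adjusted p = 0.0113). Mest rose in KD (log2 0.78, SE 0.14, adjusted p = 0.00017), and Gnas, which encodes the stimulatory G protein subunit, fell in KD (log2 -0.62, SE 0.07, adjusted p = 1.87e-07). H19, the neighbour of Igf2, was not called, at log2 0.52 in OE against control and -0.07 in KD against control.

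Of the 16 pathway genes called in any comparison, 5 held a 7mer-m8 in the longest annotated 3′ UTR (Igfbp7, Igfbpl1, Socs2, Dlk1 and Gnas). Among the tested genes with an annotated 3′ UTR, 15.6% held one. The UTRs of the 5 are 240, 1921, 3638, 2976 and 1444 bases long, in that order, against a median of 1227 over tested genes. The share was not adjusted for length, so nothing is read from it or from the directions that follow. Gnas also held an 8mer, and which of its transcripts holds that match was not checked. Of the 5, Igfbpl1 rose in KD against control, Socs2, Dlk1 and Gnas fell in KD against control, and Igfbp7 rose in OE against control. Pik3r3, which rose in KD, held none of the motifs.

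**Figure D4:**
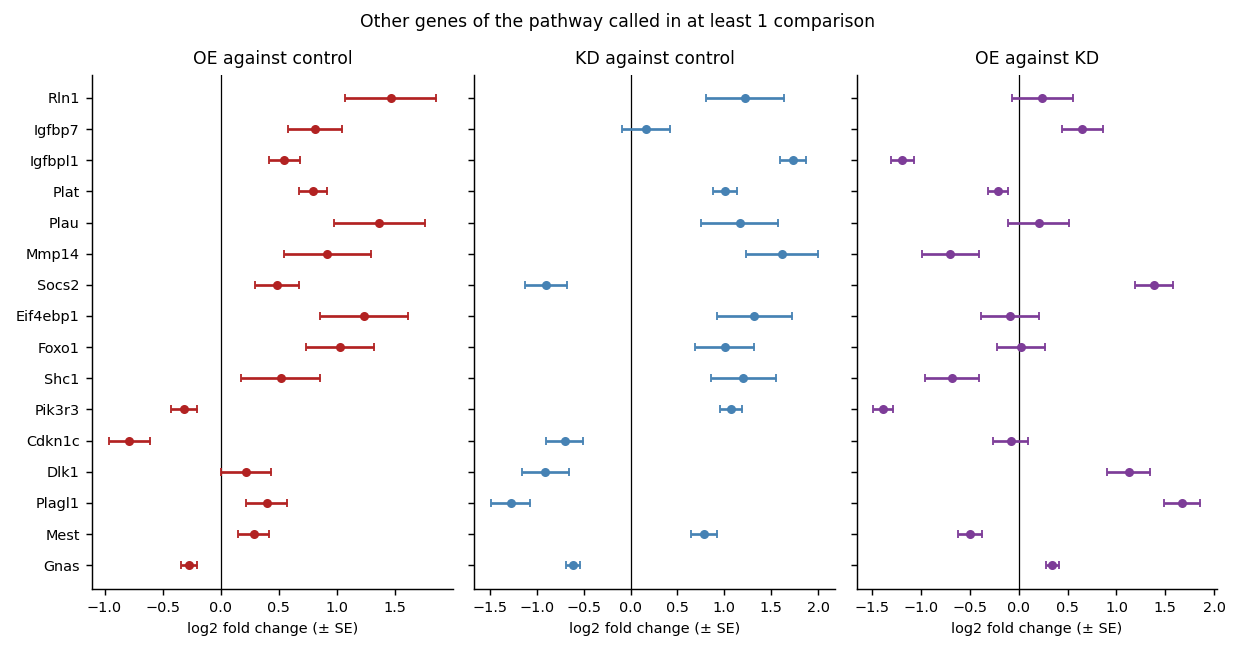
Log2 fold change (horizontal axis; point, with SE as bars) of the 16 other pathway genes called in at least 1 comparison, in OE against control, KD against control and OE against KD. In the panel of KD against control Igfbpl1 is at 1.74 and Pik3r3 at 1.07, while Plagl1 is at -1.28, Dlk1 at -0.91 and Socs2 at -0.90.

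With every library kept, some of these calls depended on the method. In OE against control, Plau and Eif4ebp1 were not called by DESeq2, limma-voom or with the replicate number as a block. Limma-voom and the block also lost Igfbp7 and Foxo1, and limma-voom lost Rln1. In KD against control, DESeq2 and limma-voom lost Rln1, Eif4ebp1 and Foxo1, and scaling by library totals lost Gnas. Some calls were also lost when a library was left out, which leaves fewer samples in the fit. The sign of the fold change stayed the same in each of these fits, and the fold was often about as large. In OE against control, Rln1 was not called without OE 1, OE 3 or control 2 (adjusted p = 0.0886, 0.0545 and 0.217 by edgeR), and Igfbp7 was not called without OE 2, OE 3 or control 2 (0.0939, 0.0638 and 0.239). In the same comparison Plau was lost without OE 3, control 1 or control 2 (0.0954, 0.133 and 0.099), and Eif4ebp1 was lost without OE 2, OE 3, control 1 or control 2 (0.0676, 0.146, 0.18 and 0.124). Foxo1 was lost without OE 1, OE 3 or control 1 (0.065, 0.0885 and 0.248), and Cdkn1c was lost without control 1 (0.0785). In KD against control, Rln1 was lost without OE 3, KD 1, KD 2 or control 2 (0.0515, 0.239, 0.072 and 0.33), Mmp14 without KD 2 (0.133) and Socs2 without KD 2 (0.0532). Shc1 was lost without KD 1, control 1 or control 2 (0.139, 0.0766 and 0.0628), Eif4ebp1 without the same 3 libraries (0.269, 0.116 and 0.0595), and Foxo1 without KD 1, KD 2 or control 1 (0.119, 0.075 and 0.235). Dlk1 was lost without KD 2 or control 2 (0.168 and 0.287) and Cdkn1c without KD 1 or control 1 (0.161 and 0.113), while Gnas without control 2 only came under the fold limit, at log2 -0.58. The log2 fold changes behind the lost calls in OE against control were 1.00 to 1.40 for Rln1, 0.62 to 0.83 for Igfbp7, 1.27 to 1.43 for Plau, 1.11 to 1.32 for Eif4ebp1, 0.75 to 0.97 for Foxo1 and -0.66 for Cdkn1c. The corresponding values for KD against control were 0.75 to 1.40 for Rln1, 1.15 for Mmp14, -0.85 for Socs2, 1.02 to 1.20 for Shc1, 0.89 to 1.40 for Eif4ebp1 and 0.72 to 1.06 for Foxo1. For Dlk1 they were -0.68 and -0.51, and for Cdkn1c -0.54 and -0.58. In OE against KD, Dlk1 was lost without KD 2 (0.0573), at log2 0.91. Plat, Igfbpl1, Pik3r3, Plagl1 and Mest kept their calls whichever 1 library was left out.

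**Figure D5:**
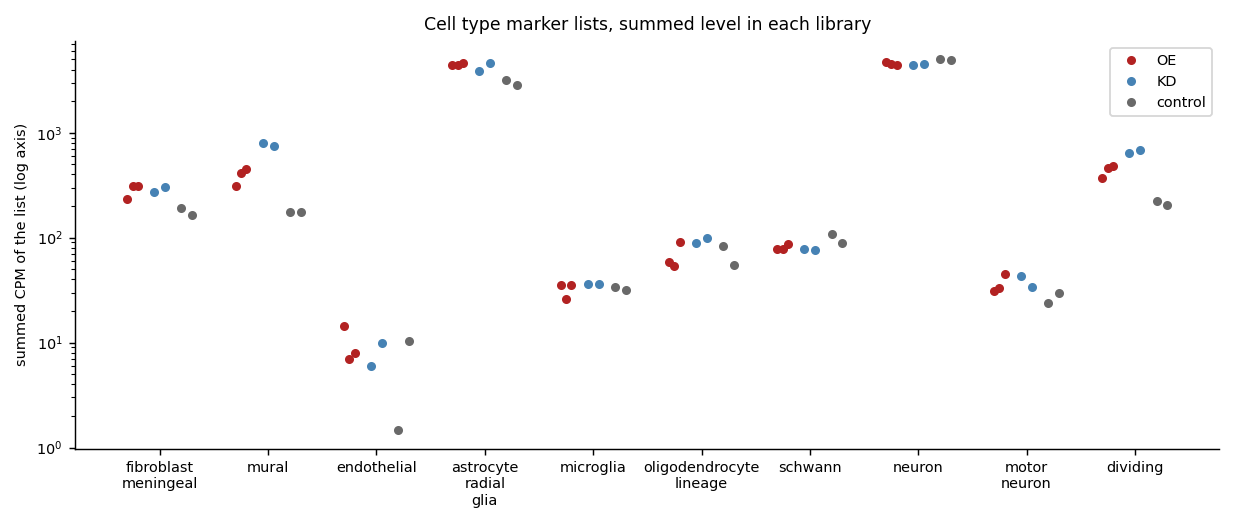
Summed CPM of each cell type marker list (log axis) in the OE, KD and control libraries (points). Mural markers lie at 313 to 453 CPM in OE and 753 and 807 CPM in KD, above 174 and 175 CPM in control libraries, and dividing cell genes lie in the same order, while neuron markers lie at 4383 to 4719 CPM in OE, 4438 and 4474 CPM in KD, and 4958 and 5015 CPM in control libraries.

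The remaining marker lists held few tested genes. Microglia markers summed to 26.2 to 35.3 CPM in OE, 35.9 and 36.4 CPM in KD, and 32.0 and 33.7 CPM in control libraries, with Csf1r at 0 and 1 of 10 tested. Oligodendrocyte lineage markers summed to 53.5 to 90.1 CPM in OE, 89.6 and 100.3 CPM in KD, and 54.5 and 83.6 CPM in control libraries, and Schwann cell markers summed to 77.6 to 87.9, 76.3 and 77.4, and 89.1 and 109 CPM in the same groups. The 9 motor neuron markers summed to 31.0 to 45.1 CPM in OE, 34.0 and 42.8 CPM in KD, and 23.9 and 29.5 CPM in control libraries. Of 4 tested, 1 rose in OE and 1 in KD against control, where 4.91% and 11.7% of all tested genes were called. The part of any of these cells in the level of a member was not tested.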

How the data were processed

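Messenger RNA of 7 libraries was sequenced as single reads of 50 bases on 1 lane. Per the labels' protocols, CASAVA 1.8.2 made the base calls, TopHat2 2.0.10 aligned to mm9, and HTSeq-count 0.6.1p1 counted the uniquely mapped reads. Which annotation and strand setting it used is not given in the sources used here. The deposited table gives raw counts per gene, and these were used. The authors' DESeq2 1.4.5 results were not used. Counts were fitted in edgeR 4.0.16 (R 4.3.3): TMM scaling, filterByExpr by group (12134 genes), robust quasi-likelihood F tests, 1 fit of group means with 4 residual degrees of freedom and a biological coefficient of variation of 12.5%. A call needs a two-sided p under 0.05 after Benjamini-Hochberg adjustment with a fold over 1.5. CPM use TMM library sizes. SEs come from the fold and its F statistic. Counting intervals are exact at 95%. Seed motifs were looked up in each gene's longest 3′ UTR (GENCODE on mm9), and miR-218-5p was taken from RefSeq. Replicate libraries differed by more than counting noise (variance 2.91 to 3.44 times counting), so each counts once. The fit was tested on simulated counts. It called 18% to 24% of simulated 1.5-fold changes, 58% to 64% of 2-fold changes and 82% to 94% of 4-fold changes, over the 3 comparisons. A gene that was not called may therefore still differ.

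The members and lists were chosen with earlier results of these data known. Named were all members and every other pathway gene called in any comparison. Also named were the 5 genes most like Pappa and Igfbp2, and the 2 most abundant markers where a marker list bears on a member. Mir218-1, Mnx1, Chat and Isl1 were named apart from this rule. Insr, H19, Stc1 and Airn were added after their values were seen. Alternatives were other scalings, filters and tests (DESeq2 1.42.0, limma 3.58.1), a replicate block and leaving out each library.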

Additional observations from a re-analysis of the deposited data

How the results depend on the processing

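The number of genes called in OE against control was 596, against 356 with limma-voom and 340 to 592 when 1 library was left out (340 without control 2). In KD against control it was 1420, against 882 (without KD 2) to 1399, and in OE against KD it was 643, against 371 (without KD 1) to 765. Of the other pathway genes, 7 were called in OE against control, against 2 with limma-voom, 3 with the replicate number as a block and 2 (without OE 3) to 7 when 1 library was left out. In KD against control 14 were called, against 10 to 14, and in OE against KD 5, against 4 to 6. Members meeting the same rule numbered 1 in OE against control with any library left out (1 to 1), 1 to 2 in KD against control and 0 to 2 in OE against KD. The cause of these shifts was not tested, beyond fewer samples in the fit. Scaling by library totals put 70.8% of calls higher in KD against control, where TMM put 59.8%, and 40.1% in OE against KD, where TMM put 55.4%, and put the median log2 fold change of all genes in KD against control at 0.0803, where TMM put it at 0.0019. With limma-voom the log2 fold change of Igf2 in KD against control was 0.0059, where edgeR gave -0.17. Same-numbered libraries did not deviate together (r = -0.026 for OE with KD, 0.019 for OE with control and -0.054 for KD with control), so the numbers were not taken as pairs. Depth limits Igf2, Igfbp4, Pappa and Stc2, with 2 to 48 counts per library.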
